A study of Mus musculus with 7 samples.

Results

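The 10 integrin chain genes described here are Itga1, Itga2, Itga4, Itgae, Itgal, Itgam, Itgax, Itgb1, Itgb2 and Itgb7. They are a selection of the chains known from natural killer (NK) cells and their tissue-resident relatives, the type 1 innate lymphoid cells (ILC1). The 10 genes were taken by gene symbol from the 53379 genes of the deposited count table. All 10 were found and passed the filter on low counts. The libraries came from mouse splenic NK cells of the C57BL/6 strain, sorted ex vivo as viable C45+, CD3-, Nk1.1+, NKp46+ and CD49b+ cells: 4 Hhex KO libraries, in which the homeobox transcription factor gene Hhex was targeted, and 3 Cre control libraries. The gate itself holds an integrin chain, since CD49b is the protein of Itga2. The sources used here do not give the promoter that drives Cre, the ages or how many animals went into a library.

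Integrins are cell surface receptors made of an alpha and a beta chain, and a chain that lacks its partner is poorly carried to the surface. Itgb1 (CD29) pairs with the collagen-binding alpha chains Itga1 (CD49a) and Itga2 (CD49b) and with Itga4 (CD49d). Itgb7 pairs with Itga4, in a receptor for gut and inflamed vessels, and with Itgae (CD103), in a receptor for E-cadherin. Itgb2 (CD18) pairs with the leukocyte chains Itgal (CD11a), Itgam (CD11b) and Itgax (CD11c), which bind ICAM proteins, complement fragments and fibrinogen. In mouse, CD49b marks circulating NK cells and CD49a marks ILC1 and tissue-resident NK cells, while CD11b is gained as NK cells mature.

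Total counts ranged from 10589915 to 18456404 per library. Values are CPM (read counts scaled to library size with TMM factors), a fold change above 1 means more in Hhex KO, and a gene was called at an adjusted p below 0.05 in edgeR's quasi-likelihood test over all 12161 genes tested. The check on the labels, Hhex, averaged 58.4 ± 4.57 CPM in Hhex KO (SD, n = 4) and 95.1 ± 1.37 CPM in Cre control (SD, n = 3), an edgeR adjusted p of 0.00768, which was 0.0516 without Cre control replicate 1. Among the Hhex KO libraries, replicates 2 and 3 were alike (chi-square per degree of freedom of 11.2 over genes), replicates 1 and 4 were next (28.3), and the other pairs stood at 69.2 to 78.5, against 15.7 to 17.5 between Cre control libraries. Replicate 4 of Hhex KO carries the sample number 95 and the others 20 to 28, and no source used here states its batch. Since no label says that libraries came from separate animals, p-values speak of the spread among these samples alone, which may be technical.

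Itga1 was the single member called, and it was higher in Hhex KO. Of all genes tested, 4.56% were called, with 2.68% called as higher and 1.87% as lower. The other 9 members were not called, and the median log2 fold change was -0.07 over the 10 members, beside 0.02 over all genes tested. In 4 members the CPM of the groups did not overlap: Itga1 and Itgb1 were higher and Itgam and Itgb2 were lower in every Hhex KO library than in every Cre control library. Such a lack of overlap was found for 19.3% of all genes tested, 9.37% with Hhex KO higher and 9.98% with Hhex KO lower. These 4 members were also those with an unadjusted edgeR p below 0.05, a rule met by 18.5% of all genes tested.

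**Figure D1:**
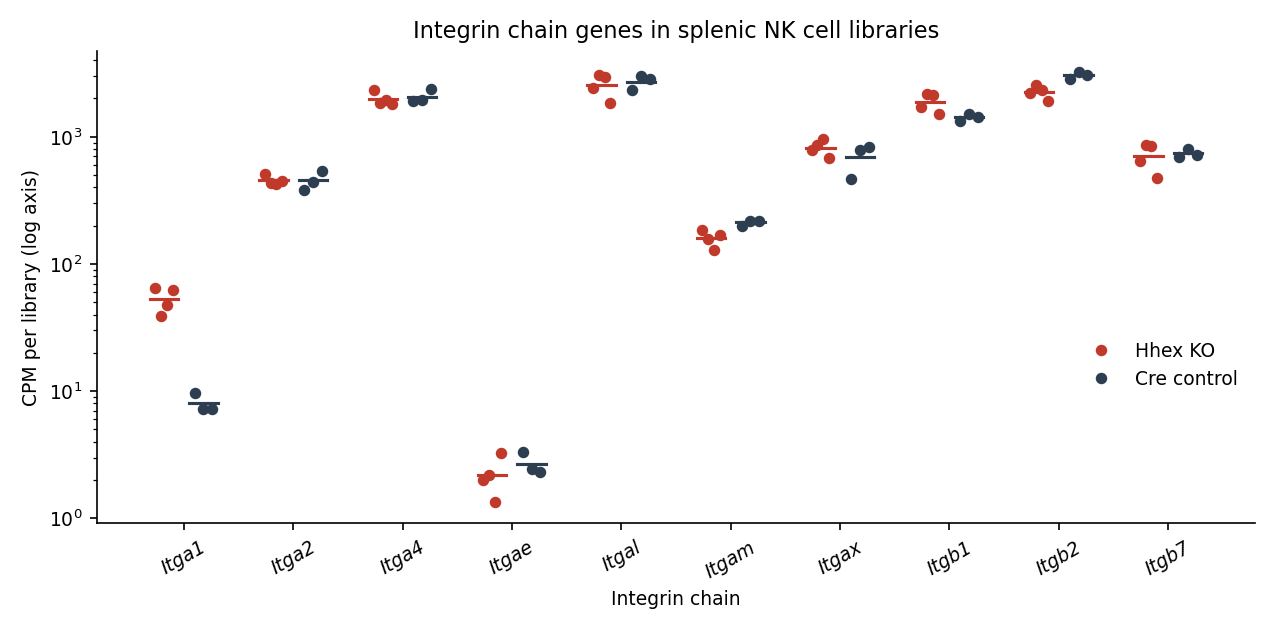
CPM of each integrin chain gene in each library, on a log axis, with Hhex KO in red and Cre control in dark blue; bars are group means. Itga1 lies at 39.2 to 64.3 CPM in Hhex KO and 7.30 to 9.67 CPM in Cre control, while the group means of the other 9 genes lie close together.

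Itga1 and Itga2 encode the alpha chains of a pair of collagen receptors that share Itgb1, and they are neighbours on the minus strand of chromosome 13. In the GENCODE M21 annotation of GRCm38, the assembly also called mm10, Itga1 (ENSMUSG00000042284.10) spans chr13:114953096-115101964 and Itga2 (ENSMUSG00000015533.9) spans chr13:114833081-114932100, so that 20995 bases lie between them. The 250 bases before each start site are shown because these adjacent genes of related function differed in the comparison. They are from RefSeq on GRCm38.p6, chr13:115101965-115102214 and chr13:114932101-114932350, minus strand, read 5′ to 3′ in the direction of transcription. Capitals mark GGAAG or its reverse complement CTTCC, a form of the shorter core GGAA that ETS transcription factors bind. GGAA followed by another base is not marked and is found in both windows.
Itga1: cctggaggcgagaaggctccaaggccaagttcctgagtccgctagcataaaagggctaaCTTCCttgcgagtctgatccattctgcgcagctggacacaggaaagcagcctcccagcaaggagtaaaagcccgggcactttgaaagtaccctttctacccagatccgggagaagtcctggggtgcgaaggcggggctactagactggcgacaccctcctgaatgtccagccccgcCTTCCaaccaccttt
Itga2: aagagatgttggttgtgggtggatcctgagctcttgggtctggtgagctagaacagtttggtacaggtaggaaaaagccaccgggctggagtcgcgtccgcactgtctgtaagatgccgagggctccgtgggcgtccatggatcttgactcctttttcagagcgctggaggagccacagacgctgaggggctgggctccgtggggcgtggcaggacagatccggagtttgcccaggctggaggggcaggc
The Itga1 window holds 2 matches of GGAAG, with first bases at -191 and -15 from the start site, and the Itga2 window holds 0. On either strand, 64.1% of the 32851 RefSeq mouse promoter windows of this length hold GGAAG. Among the other members with a window, Itgax had 3 matches, Itgb1 had 2, Itgam and Itgb7 had 1 each and Itga4 had 0. None of these members was called. ATTA, the core of many homeobox factors, is in 54.9% of windows and has 0 matches in both. The RUNX core ACCACA (14.0% of windows), the T-box core TCACAC (12.3%) and the Sp1 core GGGCGG (32.7%) also have 0 matches in both. A match or its lack is a description of these letters alone. The GC content was 57.6% for Itga1 and 60.8% for Itga2.

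Itga1 had 64.3, 39.2, 47.4 and 62.0 CPM in Hhex KO replicates 1 to 4, against 9.67, 7.30 and 7.30 CPM in Cre control replicates 1 to 3. Every Hhex KO library was above every Cre control library, and the lowest of them, replicate 2, was still more than 4 times the highest control. These values stood on 684 to 993 reads per Hhex KO library and on 83 to 135 reads per Cre control library. The fold change was 6.57 (95% interval 4.66 to 9.27), a log2 fold change of 2.72 ± 0.22 (SE; edgeR adjusted p = 0.000395). In bulk RNA, more cells that express a gene and more of its RNA per cell cannot be told apart.

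Itga2, whose protein is in the gate, had 512, 434, 423 and 448 CPM in Hhex KO replicates 1 to 4, against 380.2, 443 and 543 CPM in Cre control replicates 1 to 3. The groups overlapped fully, with the lowest and the highest library both in Cre control. The fold was 0.998 with a 95% interval of 0.788 to 1.26 (edgeR adjusted p = 0.997), so a change beyond about 1.3-fold in either direction lies outside the interval.

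Within a library, the ratio of these genes does not depend on library scaling. Per exon length, Itga1 stood at 0.0482, 0.0346, 0.0429 and 0.0530 of the Itga2 level in Hhex KO replicates 1 to 4, against 0.00976, 0.00634 and 0.00515 in Cre control replicates 1 to 3. As a share of the combined level of both genes, Itga1 made up 3.35% to 5.04% in Hhex KO and 0.512% to 0.966% in Cre control. These ratios and shares depend on the length used. In Hhex KO, Itga1 averaged 2.86 CPM per kb of exon but 4.85 by the longest coding transcript, and Itga2 averaged 63.7 and 63.9. The log2 ratio averaged -4.50 ± 0.27 in Hhex KO (SD, n = 4) and -7.20 ± 0.47 in Cre control (SD, n = 3), a difference of 2.69 with p = 0.0286 in a two-sided exact permutation test, the smallest p that 35 splits allow (p = 0.0429 adjusted over the 3 ratios tested). Itga1 thus rose against Itga2 while it remained far below it in every library. The protein of Itga2 is in the gate and its fold was 0.998, so this ratio largely restates the result of Itga1.

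**Figure D2:**
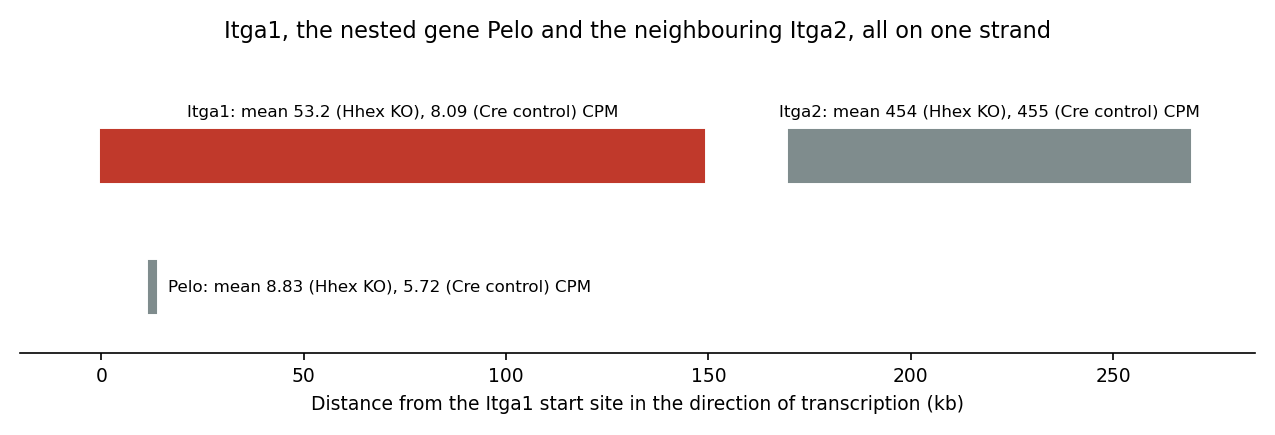
Span of Itga1, of Pelo within it and of Itga2, drawn to scale by distance from the Itga1 start site in kb, with mean CPM of Hhex KO (n = 4) and Cre control (n = 3) beside each name; red marks a gene called as higher and grey a gene that was not called. Itga1 averages 53.2 and 8.09 CPM, whereas Itga2, beginning 20995 bases beyond its end, averages 454 and 455 CPM.

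Pelo, which encodes a ribosome rescue factor, lies within the span of Itga1 on the same strand and shares 0 exon bases with it. It had 7.84, 9.28, 9.78 and 8.41 CPM in Hhex KO, against 5.10, 6.51 and 5.57 CPM in Cre control, with no overlap between the groups. Its log2 fold change was 0.63 ± 0.17 and it was not called (edgeR adjusted p = 0.0865). DESeq2 called it (adjusted p = 0.0479), as did limma-voom once samples were weighted by quality (adjusted p = 0.0087). Whether reads of unspliced Itga1 RNA reach the count of Pelo was not tested. A further gene model on the same strand, Gm49395, shares 685 exon bases with Itga1 and had at most 2 reads in any library, and Gm10734, on the opposite strand with 0 exon bases shared, had 1 to 8 reads.

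The 3 genes most like Itga1 in their course over the 7 libraries, by the root mean squared difference of log2 CPM centred per gene, were Zfp683, Tnfrsf25 and Trim34b, at 0.200, 0.204 and 0.284 log2 units. Predicted genes, clone names and pseudogenes were left out of this search, as were the other members. Zfp683 encodes Hobit, a transcription factor of tissue-resident lymphocytes in mouse, and averaged 9.22 ± 2.32 CPM in Hhex KO (SD, n = 4) and 1.52 ± 0.188 CPM in Cre control (SD, n = 3). Tnfrsf25 encodes a receptor of the TNF receptor family and averaged 13.1 ± 3.71 CPM in Hhex KO and 1.62 ± 0.355 CPM in Cre control. Trim34b was low in both groups, at 2.06 to 4.66 CPM in Hhex KO and 0.264 to 0.674 CPM in Cre control. All 3 were called as higher (edgeR adjusted p = 0.00176, 0.00112 and 0.0123), and the call of Trim34b was lost without Cre control replicate 2 (0.0518) or 3 (0.0838). A higher level in Hhex KO follows from the choice by likeness to Itga1, so these calls are no independent evidence.

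Markers of ILC1 moved with Itga1, and their part in its result was not tested. Of the 10 genes of that list, which does not hold Itga1, 9 were called as higher, 0 as lower, and Gzmc was not called. Their summed level was 496 to 688 CPM in Hhex KO and 107 to 134 CPM in Cre control. The list was chosen with earlier results of these data known and is no independent evidence. Of 12 NK cell markers, 0 were called (2 at an unadjusted edgeR p below 0.05), and they summed to 15558 to 20858 CPM in Hhex KO and 19619 to 24718 CPM in Cre control. Eomes, the transcription factor that sets NK cells apart from ILC1, was at 711 to 801 CPM in Hhex KO and 739.7 to 843 CPM in Cre control. Of the 12 NK cell markers, only 2 had a positive log2 fold change. Gzmb was lower in every Hhex KO library, with a log2 fold change of -0.59 (edgeR adjusted p = 0.0539). Prf1 had a log2 fold change of -0.45 (edgeR adjusted p = 0.245). T cell markers summed to 492 to 556 CPM in Hhex KO and 368 to 413 CPM in Cre control, with 1 of 9 tested genes called as higher (Trbc2) and 6 of 9 at an unadjusted edgeR p below 0.05. All 9 had a positive log2 fold change, among them the CD3 chains Cd3d, Cd3e and Cd3g with folds of 1.95, 1.82 and 1.65 (edgeR adjusted p = 0.089, 0.145 and 0.160), while the untested Cd4, Cd8a and Cd8b1 were at 2.91 CPM or less in every library. B cell markers summed to 306 to 475 CPM in Hhex KO and 228 to 280.1 CPM in Cre control, with 2 of 5 tested genes called as higher (Cd22 and Cd79b). Beside these list counts, 2.68% of all genes tested were called as higher and 18.5% had an unadjusted edgeR p below 0.05.

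**Figure D3:**
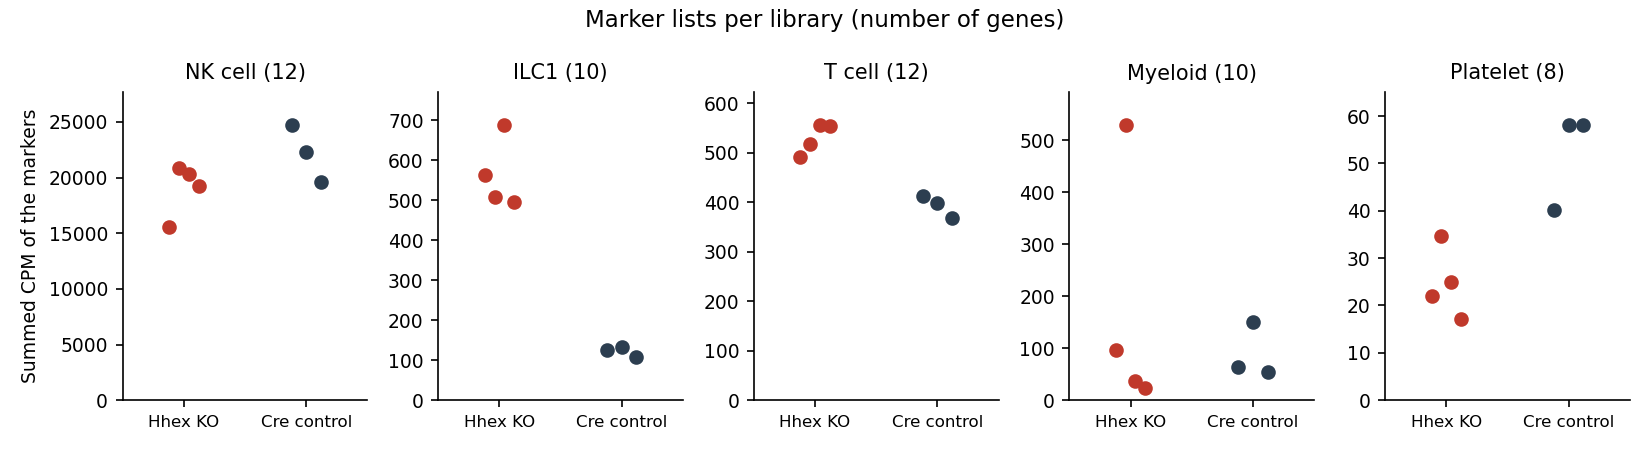
Summed CPM of 5 marker lists in each library, with Hhex KO in red and Cre control in dark blue and the number of listed genes in parentheses. The ILC1 list lies at 496 to 688 CPM in Hhex KO and 107 to 134 CPM in Cre control, the platelet list is lower in Hhex KO, and the myeloid list stands out in Hhex KO replicate 2 at 529.6 CPM.

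The shared beta chains came next. Itgb1 (ENSMUSG00000025809.15, chr8:128685654-128733200), partner of Itga1, Itga2 and Itga4, had 1720 CPM in Hhex KO replicate 1, 2171 in replicate 2, 2131 in replicate 3 and 1515 in replicate 4, against 1326, 1499.7 and 1431 CPM in Cre control replicates 1 to 3. All 4 Hhex KO libraries were above the highest control, replicate 4 by a narrow margin. The log2 fold change was 0.41 ± 0.17 (95% interval 0.03 to 0.79), which did not pass the test (edgeR adjusted p = 0.231).

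Itgb2 (ENSMUSG00000000290.13, chr10:77530252-77565708), the partner of the CD11 chains, had 2191, 2568, 2350.4 and 1905 CPM in Hhex KO replicates 1 to 4, against 2862, 3217 and 3082 CPM in Cre control replicates 1 to 3. Every Hhex KO library was below every Cre control library. Its log2 fold change was -0.44 ± 0.15 (95% interval -0.78 to -0.10), not called with edgeR (adjusted p = 0.149) but called with DESeq2 (adjusted p = 0.0230).

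Itgb7 (ENSMUSG00000001281.9, chr15:102215995-102231944), the other partner of Itga4 and the only listed partner of Itgae, had 646, 858, 842 and 470.4 CPM in Hhex KO replicates 1 to 4, against 693, 804 and 722 CPM in Cre control replicates 1 to 3. The Hhex KO libraries lay on both sides of the Cre control libraries. The fold was 0.952 with a 95% interval of 0.684 to 1.33 (edgeR adjusted p = 0.917).

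The beta chains were also set against each other within each library. Per exon length, the level of Itgb2 was 1.71, 1.58, 1.48 and 1.68 times that of Itgb1 in Hhex KO replicates 1 to 4, against 2.89, 2.87 and 2.88 times in Cre control replicates 1 to 3. The Cre control libraries were nearly equal and the Hhex KO libraries were all far below them. This ratio was looked at after its values had been seen and carries no test. As shares of the summed level of the 3 beta chains, Itgb1 made up 30.7% to 32.7% in Hhex KO and 21.4% to 21.6% in Cre control, and Itgb2 made up 48.2% to 53.6% in Hhex KO and 61.6% to 62.3% in Cre control. Itgb7 made up 14.6% to 19.0% in Hhex KO and 16.1% to 17.0% in Cre control.

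The ratio of Itgb7 to Itgb1, the alternative partners of Itga4, was 0.553, 0.582, 0.582 and 0.458 in Hhex KO replicates 1 to 4, against 0.770, 0.791 and 0.744 in Cre control replicates 1 to 3. All Hhex KO libraries were lower, replicate 4 the most so. On the log2 scale the difference was -0.50, from means of -0.89 ± 0.16 in Hhex KO (SD, n = 4) and -0.38 ± 0.04 in Cre control (SD, n = 3). The two-sided exact permutation test gave p = 0.0286, again the smallest p that 35 splits allow (p = 0.0429 adjusted over the 3 ratios). Neither Itgb7 nor Itgb1 was called by itself.

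**Figure D4:**
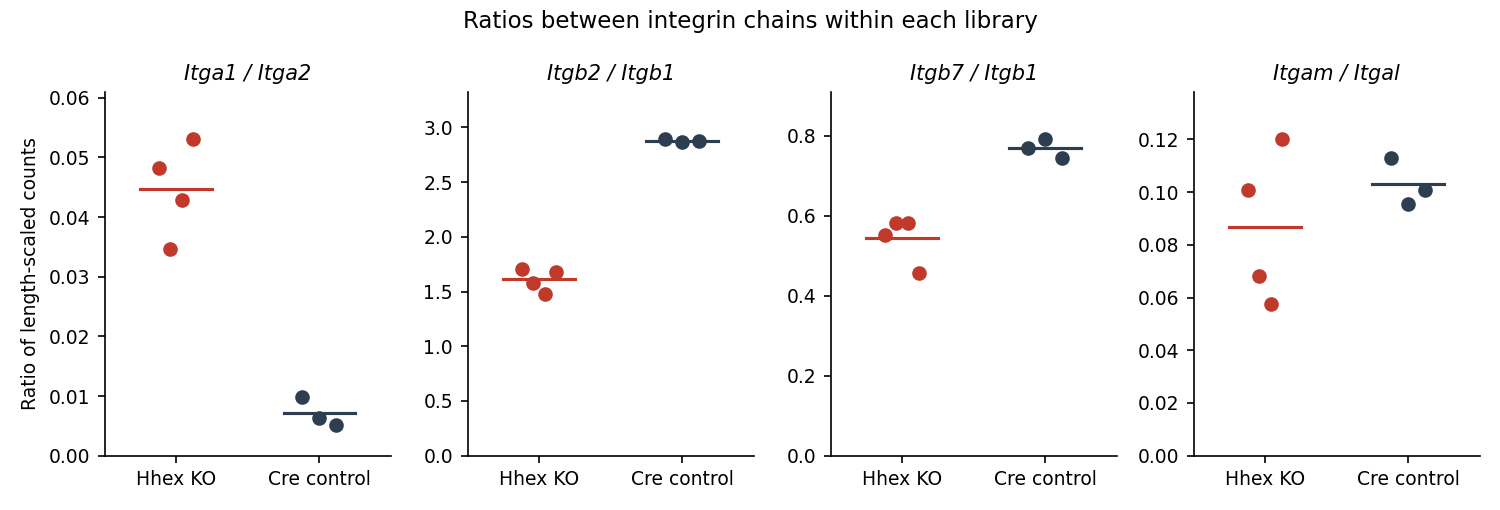
Ratio of exon-length-scaled counts between pairs of integrin chains in each library, with Hhex KO left of Cre control and bars for the group means. Itga1 to Itga2 is higher in all Hhex KO libraries, Itgb2 to Itgb1 (1.48 to 1.71 in Hhex KO, 2.87 to 2.89 in Cre control) and Itgb7 to Itgb1 are lower in all of them, and Itgam to Itgal overlaps.

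The 3 members that pair with Itgb2 as alpha chains lie on chromosome 7, Itgal (ENSMUSG00000030830.18) at chr7:127296260-127335138, Itgam (ENSMUSG00000030786.18) at chr7:128062640-128118491 and Itgax (ENSMUSG00000030789.9) at chr7:128129547-128150657, with 11055 bases between Itgam and Itgax. Itgam, the CD11b chain of mature NK cells and myeloid cells, had 186, 158, 129 and 168 CPM in Hhex KO replicates 1 to 4, against 200.5, 218 and 219 CPM in Cre control replicates 1 to 3. All Hhex KO libraries were below all Cre control libraries. The log2 fold change of -0.41 ± 0.14 (95% interval -0.72 to -0.09) was not called (edgeR adjusted p = 0.149).

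Itgal, the CD11a chain of the main leukocyte ICAM receptor, had 2424, 3042, 2931 and 1833 CPM in Hhex KO, against 2328, 2989 and 2823 CPM in Cre control. The groups overlapped, and Hhex KO held both the highest and the lowest library. Its fold was 0.943 with a 95% interval of 0.687 to 1.29 (edgeR adjusted p = 0.894).

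Itgax, the CD11c chain, which mouse NK cells carry as dendritic cells do, had 784, 864, 952 and 684 CPM in Hhex KO, against 469, 785 and 825 CPM in Cre control. The groups overlapped, and Cre control replicate 1 was the lowest library. Its fold was 1.18 with a 95% interval of 0.847 to 1.66 (edgeR adjusted p = 0.631).

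The log2 ratio of Itgam to Itgal averaged -3.59 ± 0.49 in Hhex KO (SD, n = 4) and -3.28 ± 0.12 in Cre control (SD, n = 3), a difference of -0.31 that did not exceed the spread (two-sided exact permutation p = 0.371, the same after adjustment). In Hhex KO the ratio was 0.101 in replicate 1, 0.0680 in replicate 2, 0.0574 in replicate 3 and 0.120 in replicate 4, against 0.0956 to 0.113 in Cre control. Replicates 2 and 3 were thus low and replicates 1 and 4 within or just above the control range, the same split of the Hhex KO libraries as over all genes. Markers of monocytes, macrophages and neutrophils, cells that also carry Itgam, summed to 96.2, 529.6, 36.1 and 23.2 CPM in Hhex KO replicates 1 to 4, against 54.3 to 150.1 CPM in Cre control. The part of such cells in the values of Itgam was not tested.

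Itga4 (ENSMUSG00000027009.18, chr2:79255426-79333123), which binds VCAM and MAdCAM proteins with either of its partners, had 2317, 1850, 1946 and 1814 CPM in Hhex KO replicates 1 to 4, against 1923, 1932 and 2355 CPM in Cre control replicates 1 to 3. The groups overlapped over most of their range. The fold was 0.957 with a 95% interval of 0.753 to 1.22 (edgeR adjusted p = 0.897). Itga4 shares 1124 exon bases with Cerkl on the opposite strand, which had 75 to 128 reads per library, few beside the 20485 to 43581 reads of Itga4.

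Itgae (ENSMUSG00000005947.11, chr11:73090583-73147446), the CD103 chain of lymphocytes within epithelia, was barely read. It had 31, 38, 23 and 37 reads in Hhex KO replicates 1 to 4, or 2.01, 2.18, 1.35 and 3.28 CPM, against 44, 28 and 43 reads in Cre control replicates 1 to 3, or 3.30, 2.46 and 2.32 CPM. The groups overlapped. For the lowest library the exact 95% Poisson interval was 0.859 to 2.03 CPM, which covers counting error only. The fold was 0.812 with a 95% interval of 0.482 to 1.37 (edgeR adjusted p = 0.727), so that a fall to 0.482-fold and a rise to 1.37-fold both lie at the limits of what these libraries allow. Haspin, a kinase gene on the opposite strand within the span of Itgae, had 331 to 668 reads per library.

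**Figure D5:**
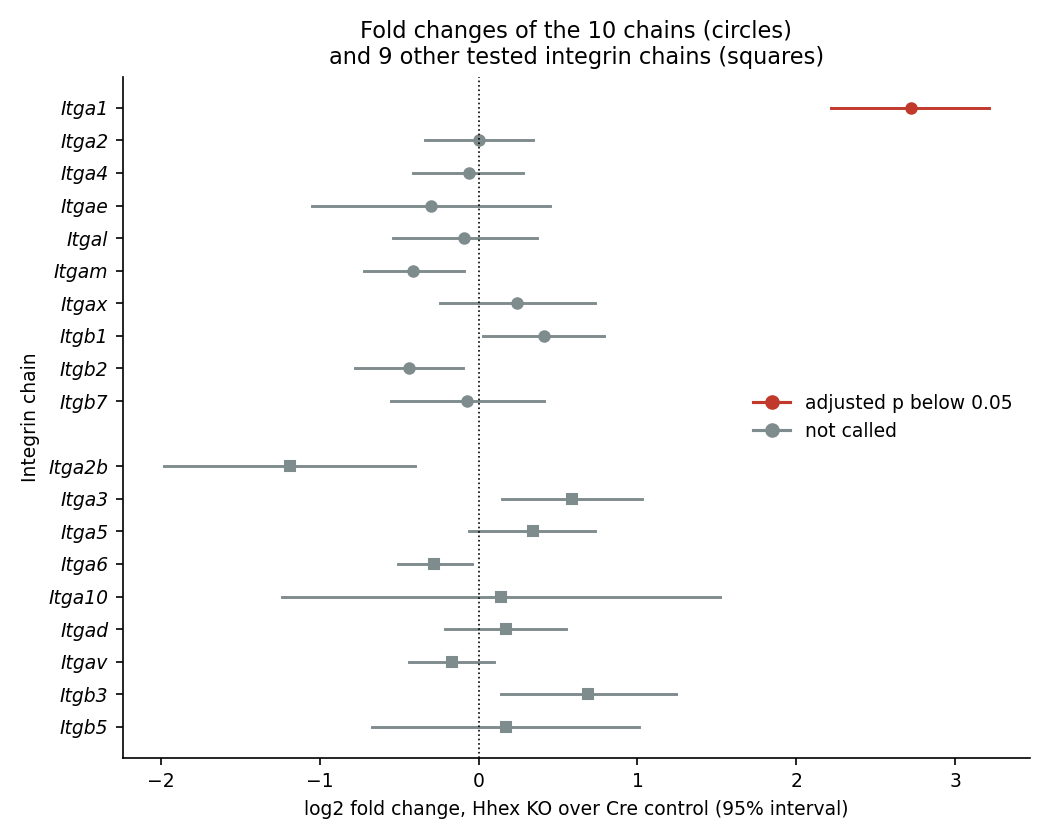
Log2 fold change of Hhex KO over Cre control with its 95% interval for the 10 integrin chains (circles) and 9 other tested integrin chains (squares); red marks an adjusted p below 0.05. Itga1 lies at 2.72 (2.22 to 3.21), and the point of every other chain lies between -1.19 and 0.69.

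Compared per kilobase of exon (CPM per kb, or RPKM), Itgb2 was the most abundant chain in both groups. In Hhex KO the order of mean levels was Itgb2 (738 RPKM), Itgb1 (462), Itgal (389), Itgb7 (254), Itgax (171), Itga4 (142), Itga2 (63.7), Itgam (31.9), Itga1 (2.86) and Itgae (0.481). In Cre control the order was Itgb2 (1001 RPKM), Itgal (413), Itgb1 (348), Itgb7 (267), Itga4 (148), Itgax (144), Itga2 (63.8), Itgam (42.3), Itgae (0.588) and Itga1 (0.435). By these means the places of Itgb1 and Itgal, of Itgax and Itga4, and of Itga1 and Itgae were swapped between the groups. Within single libraries, Itgb1 was above Itgal in 4 of 4 Hhex KO libraries and in 0 of 3 Cre control libraries. By the length of the longest coding transcript, it was above in 1 of 4 Hhex KO libraries and in 0 of 3 Cre control libraries, so which of these genes was higher in Hhex KO depends on the length used. Itgax was above Itga4 in 3 of 4 Hhex KO libraries and in 2 of 3 Cre control libraries, and their ranges overlapped in both groups. By the length of the longest coding transcript, Itgax was above Itga4 in 2 of 4 Hhex KO libraries and in 0 of 3 Cre control libraries. Itga1 was above Itgae in 4 of 4 Hhex KO libraries, at 2.11 to 3.46 RPKM for Itga1 and 0.296 to 0.715 RPKM for Itgae, and in 0 of 3 Cre control libraries. By the longest coding transcript it was above Itgae in all 7 libraries.

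The level of Itgam per length may be a low estimate. Of its 5024 exon bases, 3450 are shared with Gm49368, a gene model on the same strand that had at most 6 reads, and no source used here states how reads in shared exons were counted. Per base not shared, Itgam would stand at 102 RPKM in Hhex KO and 135 RPKM in Cre control, above Itga2 in both.

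In 6 of the 10 members, Itga4, Itgal, Itgax, Itgb1, Itgb2 and Itgb7, Hhex KO replicate 4 was the lowest Hhex KO library. Without it the log2 fold changes were 0.50 for Itgb1 (edgeR adjusted p = 0.0745), -0.37 for Itgb2 (0.143) and 2.64 for Itga1 (0.00106), so that the calls were unchanged for these 3 genes.

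Of the 16 other integrin chains of the mouse, 9 were tested and 0 were called with edgeR, beside 4.56% of all genes tested. An unadjusted edgeR p below 0.05 was found for 4 of the 9, beside 18.5% of all genes tested. DESeq2 called 1, Itga2b. The median log2 fold change was 0.17 beside 0.02 over all genes tested. The untested chains, Itga7, Itga8, Itga9, Itga11, Itgb4, Itgb6 and Itgb8, stood at 1.03 CPM or less in every library. Itga2b, the alpha chain of the platelet fibrinogen receptor, had 6.15, 8.13, 4.06 and 2.92 CPM in Hhex KO, against 8.17, 13.8 and 14.7 CPM in Cre control, a log2 fold change of -1.19 ± 0.35 (edgeR adjusted p = 0.0983). Its platelet partner Itgb3, which also pairs with Itgav, had 55.4, 56.0, 73.0 and 40.2 CPM in Hhex KO, against 24.1, 42.9 and 37.4 CPM in Cre control, a log2 fold change of 0.69 ± 0.24 (edgeR adjusted p = 0.159). The 2 genes thus had log2 fold changes of opposite sign.

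Platelet and megakaryocyte markers, a list that holds Itga2b, summed to 17.2 to 34.7 CPM in Hhex KO and 40.1 to 58.1 CPM in Cre control. Of the 8 markers, 0 were called as higher and 2 as lower, beside 2.68% and 1.87% of all genes tested. Their part in the value of Itga2b was not tested. Itga3, a laminin receptor chain, averaged 9.33 ± 1.32 CPM in Hhex KO (SD, n = 4) and 6.17 ± 0.963 CPM in Cre control (SD, n = 3; edgeR adjusted p = 0.134). Itga6, another laminin receptor chain, averaged 71.0 ± 3.30 CPM in Hhex KO and 85.9 ± 7.18 CPM in Cre control (edgeR adjusted p = 0.196).

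Genes that switch integrins to their binding state or link them to actin were not called. Of 32 listed, 28 were tested and 0 passed, beside 4.56% of all genes tested, and 0 passed with DESeq2. The median log2 fold change was -0.13. An unadjusted edgeR p below 0.05 was found for 4 of the 28, beside 18.5% of all genes tested. Those with the smallest p were Tln2, Cyth1, Parvb and Lims1. Tln2, a talin that is scarce in blood cells, was at 0.295 to 1.04 CPM in Hhex KO and 0.088 to 0.270 CPM in Cre control (edgeR adjusted p = 0.106). Cyth1, which encodes cytohesin, a regulator of Itgb2 adhesion, was at 188 to 206 CPM in Hhex KO and 234 to 248 CPM in Cre control (edgeR adjusted p = 0.173). Parvb, a parvin of the actin link, averaged 2.15 ± 1.42 CPM in Hhex KO and 6.28 ± 2.91 CPM in Cre control (edgeR adjusted p = 0.245), and Lims1, its adaptor partner PINCH, averaged 150.2 ± 17.8 CPM in Hhex KO and 124 ± 7.37 CPM in Cre control (edgeR adjusted p = 0.270). The main talin and kindlin of blood cells, Tln1 and Fermt3, had log2 fold changes of -0.16 ± 0.21 and 0.04 ± 0.14.

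Of 20 integrin ligand genes, 8 were tested and 1, Emilin1, was called as higher, beside 2.68% of all genes tested. Emilin1 encodes an extracellular matrix glycoprotein that Itga4 with Itgb1 binds. It had 9.07, 9.62, 10.6 and 6.11 CPM in Hhex KO, against 1.57, 4.40 and 3.08 CPM in Cre control, with no overlap, and its log2 fold change was 1.56 ± 0.34 (edgeR adjusted p = 0.0383). The call was lost without Hhex KO replicate 1, 2 or 3 (edgeR adjusted p = 0.0807, 0.0721 and 0.0910) and without Cre control replicate 1 or 3 (0.108 and 0.161). Icam2, a ligand of Itgal, averaged 89.7 ± 17.6 CPM in Hhex KO and 74.6 ± 4.64 CPM in Cre control (edgeR adjusted p = 0.437). Cdh1, the E-cadherin that Itgae binds, and Icam5 stayed at 1.26 CPM or less in every library (edgeR adjusted p = 0.309 and 0.457).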

How the data were processed

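RNA of 4 Hhex KO and 3 Cre control libraries was sequenced as single-end reads of 75 bp from a directional kit, per the labels' protocols. The authors deposited raw counts per gene, made with STAR and featureCounts on mm10 per the submitters' processing notes; the sources used here state no version, annotation release or strand setting. Of the gene IDs, 99.8% matched the name table without version, and 0 columns were left unused. Genes were kept by edgeR's filter by group (minimum count 10, minimum total 15), scaled by TMM and tested with edgeR 4.0.16 (quasi-likelihood F test, robust, R 4.3.3), Benjamini-Hochberg over 12161 genes. The SE is the log2 fold change over the square root of F, and log2 CPM used a prior count of 2. Lengths are the union of GENCODE M21 exons. The fit and the permutation test were tested on simulated data. Alternatives were scaling by RLE or upper quartile, testing unfiltered genes, a stricter filter (10 CPM in 3 libraries), DESeq2 1.42.0, limma 3.58.1 with voom, either plain or weighting samples by quality, a replicate block, each library left out and, for ratios, 1 added to every count. The members and lists were chosen with earlier results of these data known. Named from each list were all called genes and those of smallest p, up to 4; Tln1, Fermt3, Gzmc, the T cell markers, the called B cell markers and the single markers were named after their values were seen. Single values of some marker genes are not reported here.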

Additional observations from a re-analysis of the deposited data

Results flagged for a closer look

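Of 32 sets of 4 values checked for a library far from the rest, 1 was found: Itga6 stood at 66.1 CPM in Hhex KO replicate 4, against 72.0, 72.6 and 73.2 CPM in the other Hhex KO libraries. Chance sets apart about 1 in 20 such groups.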

How the results depend on the processing

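Itga1 was called under all 15 alternatives, with log2 fold changes of 2.52 to 2.86 and adjusted p from 1.42e-28 to 0.00811. Members called numbered 2 with DESeq2 (Itgb2 added) and 4 with limma-voom with sample quality weights (Itgam, Itgb1 and Itgb2 added; adjusted p = 0.0111, 0.011 and 0.0429), and 1 in every other setting; Itgae was not tested under the stricter filter. All genes called numbered 554 in the reported fit, 369 with the stricter filter, 1042 with DESeq2, 2859 with sample quality weights and 141 to 818 with a library left out. Other integrin chains called numbered 0, against 1 with DESeq2, 2 with sample quality weights and 1 with the replicate block (Itgb3, adjusted p = 0.045). Activation genes called numbered 0, against 5 with sample quality weights. Ligands called numbered 1, against 3 with sample quality weights, 0 with the stricter filter and 0 to 1 with a library left out. Emilin1 was not tested under the stricter filter. With a library left out, the difference of the Itga1 to Itga2 log2 ratio was 2.49 to 2.95 and that of Itgb7 to Itgb1 was -0.54 to -0.42; the smallest p of such exact tests is 0.0667 or 0.1, so these cannot pass. With the replicate block they were 2.60 and -0.42, where the smallest exact p is 0.25. No label states that the numbers pair the samples. Same-numbered libraries correlated in their deviations at 0.147, 0.566 and -0.0819, which cannot settle whether they are paired. By the longest coding transcript, Itga1 stood at 0.738 RPKM and Itgae at 0.701 RPKM in Cre control, so their order there depends on the length used; this and the length without shared exons were chosen after seeing the data. Itgae, with 23 to 44 reads per library, had the fewest reads of the members.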
